A study of Homo sapiens with 4 samples.

Results

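LIN37 is a subunit of the MuvB core, and it was described here together with the genes of the complexes that the core builds. The 10 genes were LIN37, LIN9, LIN52, LIN54, RBBP4, MYBL2, E2F4, RBL1, RBL2 and TFDP1, out of 24014 genes in the count table, and each was found by its symbol. LIN37 was picked because its rise in these libraries was among the largest of the called genes. Its values and calls are therefore given as a description and not as a test. The other 9, called partners below, were picked for their place in the complex. An eleventh row carried the symbol RBL1 but was an antisense transcript (ENSG00000269846) with 0, 1, 0 and 1 counts, and it was left out.

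The RNA came from SK-N-SH, a human neuroblastoma cell line, and was sequenced as 4 libraries. The 2 control libraries came from wild type cells that received an empty lentiviral vector, and the 2 AP1AR-DT_OE libraries from cells that received a lentivirus carrying the long non-coding RNA AP1AR-DT, labelled AC109347.1. For AP1AR-DT_OE 2 the genotype and treatment labels read AC109347.2 while its title reads AC109347.1, and the title was followed. Only 1 cell line was used, and the labels do not say that libraries came from separate cultures, so p-values measure only the spread between these libraries.

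The MuvB core is made of LIN9, LIN37, LIN52, LIN54 and RBBP4. In resting cells the core joins a pocket protein (p130, encoded by RBL2, or p107, encoded by RBL1) and the E2F4-DP1 pair to form the DREAM complex, which holds cell-cycle genes silent. In cycling cells the same core leaves the pocket protein and joins B-MYB, encoded by MYBL2, and then FOXM1, to switch on genes of G2 and mitosis. LIN54 is the subunit that touches DNA, at the cell cycle genes homology region (CHR), while E2F4 and DP1 read E2F sites. LIN37 is needed for the repressing form and not for the activating one.

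The libraries held between 21988065 and 26184599 counts, and between 19833 and 21280 genes had a count above 0. The delivered RNA was present where the labels put it: AP1AR-DT had 3 and 18 counts in control 1 and control 2, against 680 and 1065 in AP1AR-DT_OE 1 and AP1AR-DT_OE 2. Libraries also differed by replicate number. GC-rich genes were relatively lower in the number 2 library of either group: across genes, Spearman's rho between GC content and the log2 ratio of number 2 to number 1 was -0.77 for control (13231 genes) and -0.65 for AP1AR-DT_OE (13234 genes). The 6 adrenergic markers analysed, such as HAND2 and GATA3, and the 7 mesenchymal markers, such as VIM and FN1, were all detected, and none passed the test. TH was not analysed here. PRRX1, a mesenchymal transcription factor singled out after its values were seen, had 2770 and 11358 normalized read counts in the controls. In AP1AR-DT_OE it had 1241 and 2246, a Log2FC of -2.02 (adjusted p = 0.431, DESeq2 Wald test). The Log2FC of the other mesenchymal markers ran from -0.41 for SNAI2 to 0.12 for VIM, and 2 of the 7 were above 0. The part of PRRX1 in the results below was not tested. In bulk RNA, fewer cells of a type and less RNA per cell cannot be told apart. A call meant an adjusted p under 0.05 (DESeq2 Wald test, Benjamini-Hochberg), which 33 of the 24014 genes reached, or 0.137%. The edgeR quasi-likelihood test called 0, with 112 genes at p under 0.05 before adjustment. Leaving out 1 library gave 90 calls without control 1, 75 without control 2, 45 without AP1AR-DT_OE 1 and 50 without AP1AR-DT_OE 2.

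LIN37 lies on chromosome 19 at 35748361 to 35754519 on the plus strand (ENSG00000267796; GRCh38 positions of the count table). A second gene of the table, AC002398.9 (ENSG00000188223, 35745678 to 35754519), starts inside the neighbouring gene PSENEN and ends at the same base as LIN37. Its transcript joins exons of PSENEN, which encodes a subunit of gamma-secretase, to exons of LIN37. In GENCODE v44, 8 exons were identical in the coding transcript LIN37-201 and in the AC002398.9 transcript. They made up 752 bases, which is 80.4% of the 935 bases of LIN37-201 and 72.5% of the 1037 bases of AC002398.9. The other 285 bases of AC002398.9 are exon bases of PSENEN on the same strand. AC002398.9 thus has no exon base of its own, and its counts depend on how reads in shared exons were assigned. The 2 splice junctions that tell the transcripts apart are shown because a read from within the 8 shared exons fits both. Each line gives the last 30 bases of the upstream exon in lower case and the first 30 bases of the first shared exon in capitals, on the plus strand of GRCh37. The lower-case bases are chr19:36239630-36239659 for LIN37-201 and chr19:36237395-36237424 for AC002398.9, and the capitals are chr19:36243077-36243106 for both.
LIN37-201, exon 1 to exon 2: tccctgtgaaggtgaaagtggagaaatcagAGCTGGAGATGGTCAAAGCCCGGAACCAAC
AC002398.9, exon 3 to exon 4: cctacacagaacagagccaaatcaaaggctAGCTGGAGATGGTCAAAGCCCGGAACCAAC
The lower-case parts differ and the capitals are the same. A further gene, the antisense lncRNA AC002398.11 (ENSG00000267439), covers 1180 exon bases of LIN37 on the opposite strand, and the library kit named in the labels does not mark strand.

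**Figure D1:**
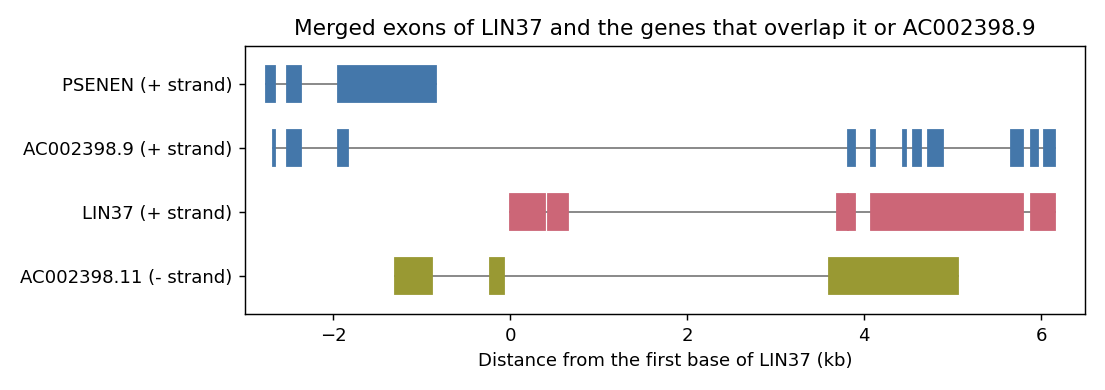
Merged GENCODE v44 exons (boxes) of PSENEN, AC002398.9, LIN37 and AC002398.11 against the distance in kb from the first base of LIN37, with lines for introns. The first exons of AC002398.9 lie in PSENEN and its later exons lie in LIN37, while AC002398.11 is on the opposite strand.

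LIN37 had 4 counts in control 1 and 2 in control 2, against 66 in AP1AR-DT_OE 1 and 124 in AP1AR-DT_OE 2. After division by the size factor, the normalized read counts came to 4.56 and 1.54 for control and to 72.4 and 123 for AP1AR-DT_OE. Both AP1AR-DT_OE libraries were thus far above both controls. Both controls lay under 12 counts, the floor that an observation of 0 allows at about 4 counts per read pair. With the controls set at that floor, LIN37 was 8.53-fold higher in AP1AR-DT_OE, and 5.30-fold and 13.3-fold higher within number 1 and number 2. These folds are not lower limits. Control 1 held 1 read pair rather than 0, and the counting error of the AP1AR-DT_OE libraries is not included. The fitted Log2FC was 5.07 (SE 1.01), which depends on control values near 0. It lay between 4.43 without control 2 and 5.98 without control 1. LIN37 left the called genes when either control 2 or AP1AR-DT_OE 2 was left out. It also left them in the edgeR quasi-likelihood test (Log2FC 5.02), which called no gene, and with counts divided by 4 to stand for read pairs (Log2FC 5.67).

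AC002398.9 went the other way in 1 library. It had 89, 125, 147 and 0 counts in control 1, control 2, AP1AR-DT_OE 1 and AP1AR-DT_OE 2, or 101, 96.4, 161 and 0 normalized read counts. AP1AR-DT_OE 2, with the most LIN37 counts, was the library in which AC002398.9 was at 0. With AP1AR-DT_OE 2 set at the floor, AC002398.9 was 8.10-fold lower within number 2, without the counting error of control 2. In AP1AR-DT_OE 1 both genes were above both of their control values.

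The share of LIN37 in the summed counts of LIN37 and AC002398.9 was 4.30% in control 1 (95% Wilson interval 0.772% to 21.0%, counted in read pairs). It was 1.57% in control 2 (interval 0% to 11.0%), 31.0% in AP1AR-DT_OE 1 (19.5% to 43.5%) and 100% in AP1AR-DT_OE 2 (89.0% to 100%). These intervals take each read pair as known to come from the gene it was assigned to. Since 80.4% of LIN37-201 lies in shared exons, they leave out the error of that assignment and can be too narrow. The interval of control 1 overlaps that of AP1AR-DT_OE 1. The intervals of AP1AR-DT_OE 1 and AP1AR-DT_OE 2 do not overlap, with the same limit.

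The sum of both genes was above the floor in all 4 libraries. Summed counts were 93 in control 1, 127 in control 2, 213 in AP1AR-DT_OE 1 and 124 in AP1AR-DT_OE 2. As normalized read counts these were 106 and 98.0, against 234 and 123. The groups did not overlap, but AP1AR-DT_OE 2 lay close to the controls. The control mean was 102 ± 5.62 and the AP1AR-DT_OE mean 178 ± 78.2 (SD, n = 2). The Log2FC of 0.81 (SE 0.61) did not pass the test (DESeq2 Wald test, adjusted p = 1). Within number 1 the log2 ratio was 1.14 and within number 2 it was 0.33. The Log2FC fell to 0.27 without AP1AR-DT_OE 1 and came to 1.19 without AP1AR-DT_OE 2.

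With PSENEN added, since it shares 285 exon bases with AC002398.9, the sum of the 3 genes was 770 and 941 counts in the controls against 847 and 809 in AP1AR-DT_OE. The Log2FC of that sum was 0.11 (SE 0.45, DESeq2 adjusted p = 1). PSENEN alone had 677, 814, 634 and 685 counts, and the antisense lncRNA AC002398.11 had 104, 151, 82 and 123. Neither followed LIN37 across the libraries. How reads were divided between LIN37 and AC002398.9, and its part in the LIN37 values, was not tested.

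**Figure D2:**
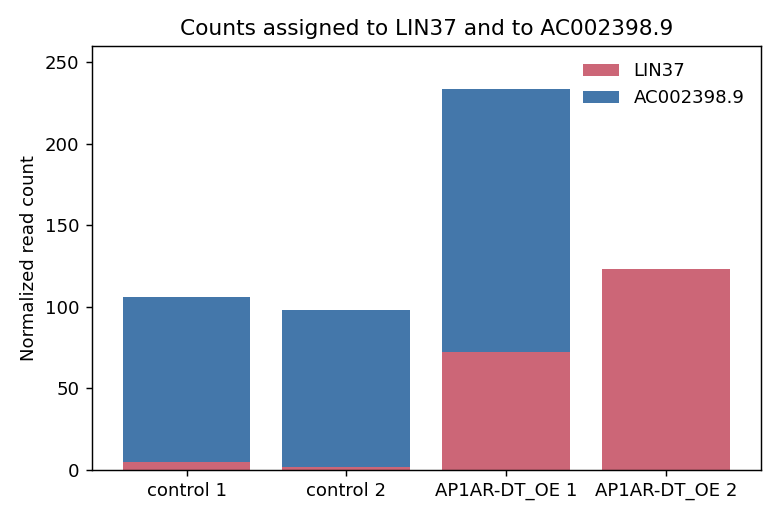
Normalized read counts assigned to LIN37 (red) and to AC002398.9 (blue), stacked, in each of the 4 libraries. The bars reach 106 and 98.0 in the controls, 234 in AP1AR-DT_OE 1 and 123 in AP1AR-DT_OE 2, and the red share is 4.30%, 1.57%, 31.0% and 100%.

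Within 30 kb of LIN37 the table held 11 further genes, and none was called. KMT2B, a histone methyltransferase, had a Log2FC of -0.15, IGFLR1 0.00, U2AF1L4 0.16, PSENEN -0.02 and AC002398.11 -0.15. Downstream, HSPB6 had 0.19, C19orf55 0.03, AC002398.13 -0.11 and ARHGAP33 -0.02. Besides AC002398.9, AD000671.6 was uneven within a group, with 173 counts in AP1AR-DT_OE 1 and 0 in the other libraries. Apart from these 2 genes, no neighbour had a Log2FC outside -0.15 to 0.19.

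Of the 10 genes, 1 was called, LIN37 itself, which was selected on this contrast, and none of the 9 partners was, against 0.137% of all genes. The partners' median Log2FC was 0.01, with 6 above 0 and 3 below, where the median over all genes tested was -0.03. It ran from -0.28 without control 1 to 0.40 without control 2. Counted by non-overlap of the 2 groups, 2 of the 9 partners were separate: TFDP1 was higher in AP1AR-DT_OE and RBL1 was lower. LIN37 was separate too, but it was selected on this contrast and is not counted. Of the 13298 genes whose mean was 50 normalized read counts or more, 9.45% had groups that did not overlap, and 5.11% were separate and higher. With 2 libraries a group, that count has no test of its own.

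**Figure D3:**
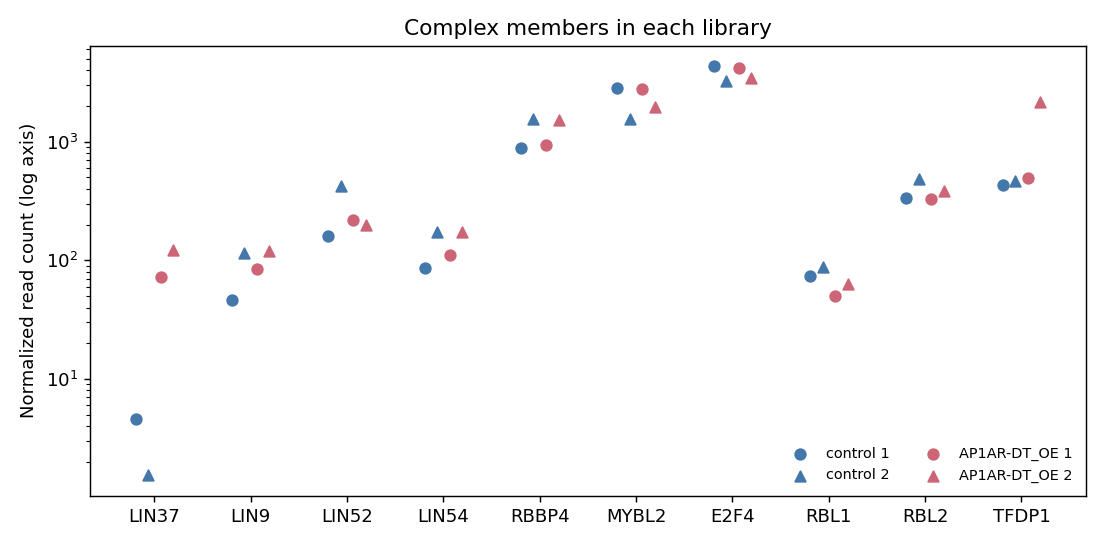
Normalized read count (log axis) of each of the 10 genes in control (blue) and AP1AR-DT_OE (red), with circles for replicate 1 and triangles for replicate 2. LIN37 stands apart in both AP1AR-DT_OE libraries, TFDP1 in AP1AR-DT_OE 2, and most other genes differ more between circles and triangles than between colours.

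Among the core subunits, LIN9, a scaffold of MuvB, had 46.7 and 116 normalized read counts in the controls against 84.5 and 119 in AP1AR-DT_OE. Its groups overlapped, and the Log2FC was 0.32 (SE 0.71). LIN52, whose phosphorylation by DYRK1A allows the core to bind the pocket protein, had 159 and 423 in the controls against 217 and 200.5 in AP1AR-DT_OE. Control 2 alone was high, both AP1AR-DT_OE values lay between the controls, and the Log2FC was -0.48 (SE 0.60), or 0.40 without control 2. LIN54, the DNA-binding subunit, had 86.6 and 174 in the controls against 112 and 175 in AP1AR-DT_OE. The number 2 libraries of LIN54 were nearly the same, and the Log2FC was 0.14 (SE 0.64).

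RBBP4, a histone-binding protein that also serves in other chromatin complexes, had 888 and 1545 normalized read counts in the controls against 931 and 1514 in AP1AR-DT_OE. It followed the replicate number almost exactly, with log2 ratios of 0.07 and -0.03 within number 1 and number 2, and a Log2FC of 0.01 (SE 0.50). Its exons overlap those of SYNC on the opposite strand over 22.8% of their length, so its level is less certain. Smaller overlaps of this kind were those of RBL2 with AKTIP (7.51%) and of RBL1 with its antisense transcript (3.58%). The adjusted p of all 4 core partners was 1 (DESeq2 Wald test). None of these 4 was called, where 0.137% of all genes were. LIN37 was selected on this contrast, so its call is not set against theirs.

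The DNA-binding and pocket protein side of DREAM was next. E2F4, the repressor E2F of the complex, had 4321 and 3222 normalized read counts in the controls against 4157 and 3438 in AP1AR-DT_OE, with a Log2FC of 0.01 (SE 0.44). RBL2, or p130, the main pocket protein of resting cells, had 337 and 482 in the controls against 327 and 387 in AP1AR-DT_OE, with a Log2FC of -0.20 (SE 0.50). For both genes the groups overlapped, and neither passed the test (adjusted p = 1, DESeq2).

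RBL1, or p107, was lower in both AP1AR-DT_OE libraries. It had 74.0 and 88.7 normalized read counts in the controls against 50.5 and 63.5 in AP1AR-DT_OE. The means were 81.4 ± 10.4 and 57.0 ± 9.24 (SD, n = 2), and the groups did not overlap. The log2 ratios within number 1 and number 2 were -0.55 and -0.48. The Log2FC of -0.51 (SE 0.71) nevertheless did not pass the test (DESeq2 Wald test, adjusted p = 1). RBL1 had between 46 and 115 counts, at about 4 counts per read pair. Without any 1 library, the Log2FC of RBL1 lay between -0.70 and -0.36.

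TFDP1, or DP1, the partner that E2F4 needs to bind DNA, was the partner with the lowest unadjusted p. It had 434 and 466 normalized read counts in the controls, 498 in AP1AR-DT_OE 1 and 2173 in AP1AR-DT_OE 2. The groups did not overlap, but AP1AR-DT_OE 1 stood just above the controls and the difference rested on AP1AR-DT_OE 2. The means were 450 ± 22.6 and 1335 ± 1184 (SD, n = 2). The Log2FC was 1.57 (SE 0.62), with an unadjusted p of 0.0113 and an adjusted p of 1 in the DESeq2 Wald test. Over all genes, 0.816% had an unadjusted p under 0.05. The log2 ratio was 0.20 within number 1 and 2.22 within number 2. Without AP1AR-DT_OE 2 the Log2FC of TFDP1 was 0.13, and without AP1AR-DT_OE 1 it was 2.27 (adjusted p = 0.19). No exon of TFDP1 overlaps that of another gene of the table.

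MYBL2, or B-MYB, the factor that takes the place of the pocket protein in cycling cells, had 2866 and 1564 normalized read counts in the controls against 2769 and 1982 in AP1AR-DT_OE. The groups overlapped, and the Log2FC was 0.10 (SE 0.48, adjusted p = 1, DESeq2). For MYBL2 the number 1 libraries were the high ones in both groups, opposite to LIN54, RBBP4 and LIN9.

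That opposite order followed GC content. The 7 partners with a GC content of 39.1% to 46.4% were all higher in control 2 than in control 1, with log2 ratios of 0.10 to 1.41. In AP1AR-DT_OE, 6 of these 7 were higher in number 2, and LIN52 was the exception at -0.12. E2F4 and MYBL2, at 59.3% and 60.5% GC, were lower in number 2 in both groups, with log2 ratios of -0.42 and -0.87 in control and -0.27 and -0.48 in AP1AR-DT_OE. LIN37, at 59.1% GC, was higher in AP1AR-DT_OE 2 than in AP1AR-DT_OE 1, and its controls, both under the floor, have no order. With the GC trend of each library taken out, the Log2FC of LIN37 was 5.13 and that of TFDP1 was 1.54, both close to the values without the correction. The GC points share the same 4 libraries, and no more than the order was read from them.

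**Figure D4:**
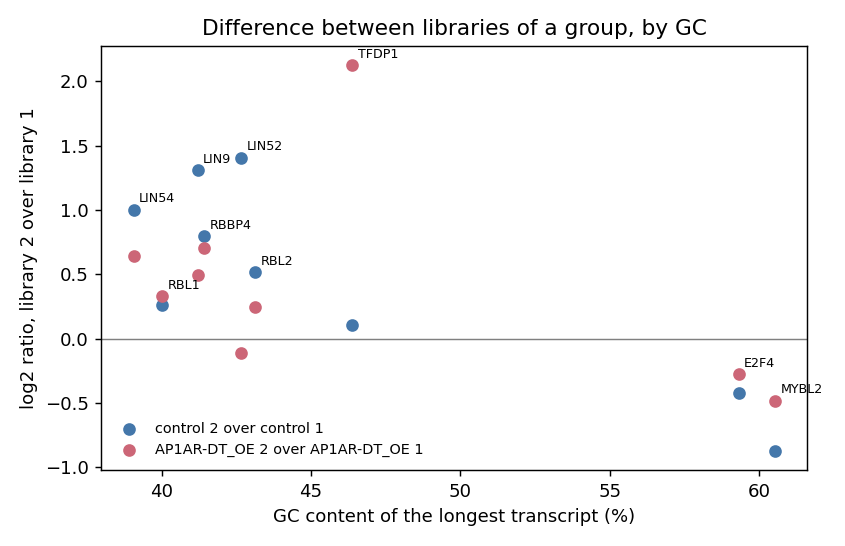
The log2 ratio of library 2 over library 1 in control (blue) and AP1AR-DT_OE (red) against the GC content (%) of each partner's longest transcript. The GC-poor genes lie mostly above 0 and E2F4 and MYBL2 below it, with TFDP1 in AP1AR-DT_OE at 2.13.

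Levels between genes were compared per length, as TPM (a gene's share of all counts per base of exon, scaled to a fixed total) computed here over the merged exons. E2F4 was at 86.1 to 101 TPM over the 4 libraries and MYBL2 at 55.4 to 86.5, and the ranges of these 2 overlapped slightly. Both stood above TFDP1, with a median of 11.8 TPM, and RBBP4, with a median of 11.4. LIN52 and RBL2 followed with medians of 4.81 and 3.89 TPM. LIN9, LIN54 and RBL1 had medians of 2.01, 1.86 and 1.00 TPM. Neighbours in this order overlapped in range except MYBL2 against TFDP1 and RBL2 against LIN9.

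LIN37 was at 0.135 and 0.0538 TPM in the controls and at 2.18 and 3.93 TPM in AP1AR-DT_OE, which put it below all partners in the controls and within or above the ranges of LIN9 and LIN54 in AP1AR-DT_OE. Its merged exons are 3.02 times as long as LIN37-201, so a level per length of that transcript would be higher by the same factor. Taken with AC002398.9 over their joint exons, the level was 2.86 and 3.10 TPM in the controls against 6.38 and 3.57 TPM in AP1AR-DT_OE. On that scale the controls lay between the ranges of LIN9 and LIN52.

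Of 6 other genes of the wider complex family none was called, and their Log2FC ran from -0.23 to 0.07. FOXM1, which joins MYBL2 and the core at mitotic genes, had 8540 and 4385 normalized read counts in the controls against 7956 and 5417 in AP1AR-DT_OE, a Log2FC of 0.05. RBBP7, the paralog of RBBP4, had a Log2FC of 0.07, TFDP2, the paralog of TFDP1, -0.23, and E2F5, a further repressor E2F, -0.06. The MYB family members MYB and MYBL1 had -0.03 and -0.22, with MYB at only 21 to 40 counts.

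DREAM is opposed by cyclin-dependent kinases and favoured by their inhibitors and by DYRK1A and LATS kinases. Of 26 such regulators listed, 25 were analysed and none was called, with a median Log2FC of -0.03. Groups did not overlap for 2 that were higher and 3 that were lower, so 5 of the 25. Separate groups were found for 13.7% of all genes tested and for 9.45% of those with a mean of at least 50. CDKN2C, a CDK4 and CDK6 inhibitor, was at 2100.1 ± 214 normalized read counts in control and 2458 ± 243 in AP1AR-DT_OE, a Log2FC of 0.23. LATS2, a kinase that activates DYRK1A, had a control mean of 1575 ± 12.5 and an AP1AR-DT_OE mean of 1251 ± 23.7 (SD, n = 2), a Log2FC of -0.33. The groups of LATS2 did not overlap. The SE that DESeq2 gave it, taken in part from genes of like level, was 0.43, and LATS2 did not pass the test. It was named as the lowest Log2FC of its list at a mean of at least 50, and an SD from 2 libraries is itself uncertain. CDK2 and CDKN1C both had a Log2FC of 0.18, while CDK6 had -0.29 and E2F3 -0.21, all with overlapping groups.

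The targets that DREAM holds silent in resting cells fall into early genes of DNA replication, read mainly through E2F sites, and late genes of G2 and mitosis, read mainly through CHR sites. RefSeq windows from 250 bases before to 50 bases after each start (GRCh38.p14) were searched on both strands for the E2F letters TTTCCCGC, TTTCGCGC, TTTGCCGC and TTTGGCGC and for the CHR letters TTTGAA and TTCGAA. E2F letters stood in 18 of 37 windows of early targets (48.6%) and in 4 of 31 of late targets (12.9%), against 3.31% of all 35116 windows. CHR letters stood in 22 of 31 windows of late targets (71.0%) and in 2 of 37 of early targets (5.41%), against 16.4% of all windows. Windows were found for 27 of the 30 early targets and 25 of the 30 late targets, some with more than 1. By gene, E2F letters stood in 17 early and 3 late targets, and CHR letters in 2 early and 19 late targets. A match of letters describes the window and is not a shown site.

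The 10 complex genes had 16 such windows. E2F letters were found in 3 of them, 1 each for RBL1, LIN52 and TFDP1, against 3.31% of all windows. CHR letters were found in 5, for LIN9, LIN54, RBL2 and LIN37, against 16.4% of all windows, and the 2 windows of LIN54 overlap. The stretches below are shown since the complex reads such letters, and they lie in windows of RBL1, TFDP1, LIN52 and LIN54. The letters of LIN9, RBL2 and LIN37 are not shown. RBL1 and TFDP1 had separate groups, LIN52 and LIN54 did not, and a link to the letters was not tested. Capitals mark the matched letters, and coordinates are GRCh38.p14.
RBL1, chr20:37095998-37096057, minus strand: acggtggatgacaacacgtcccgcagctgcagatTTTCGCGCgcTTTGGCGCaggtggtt
TFDP1, chr13:113584613-113584672, plus strand: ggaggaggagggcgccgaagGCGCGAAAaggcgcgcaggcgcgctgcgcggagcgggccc
LIN52, chr14:74084920-74084949, plus strand: tggaacctcgtTTTCCCGCcgacggttggc
LIN54, chr4:83010905-83010934, minus strand: gcccttgtgcgTTTGAAggttggcggggcg
The RBL1 letters began 26 and 16 bases before the start, those of LIN52 at 25 bases and those of TFDP1 at 120 bases, on the opposite strand for TFDP1. The CHR letters of LIN54 began 100 bases before one of its RefSeq starts and 89 before the other.

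Of 30 early targets, 29 were analysed and none was called. Their median Log2FC was 0.07, against -0.03 over all genes. The Log2FC was above 0 for 22 and below 0 for 7, where 10941 of the 24014 genes tested were above 0. Groups did not overlap for 3 that were higher and 2 that were lower, or 17.2%. Separate groups were found for 13.7% of all genes tested and for 9.45% of those with a mean of at least 50. TYMS, the thymidylate synthase, was at 1982 ± 79.2 normalized read counts in control and 2420 ± 261 in AP1AR-DT_OE, a Log2FC of 0.29. GINS2, a subunit of the replicative helicase, had 0.27 and RRM2, a subunit of ribonucleotide reductase, 0.24. CDC45, which loads with that helicase, had 65, 103, 64 and 25 counts and a Log2FC of -0.69. Its low value was in AP1AR-DT_OE 2 only. PCNA, the sliding clamp, had -0.21. The list's median was 0.15 within number 1 and 0.02 within number 2, and it turned to -0.12 without control 1 and to -0.04 without AP1AR-DT_OE 2, and was 0.41 without control 2.

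All 30 late targets were analysed and none was called. Their median Log2FC was 0.03, with 17 above 0 and 13 below. CDC25C, the phosphatase that activates CDK1, had 66.1 and 154 normalized read counts in the controls against 140 and 154 in AP1AR-DT_OE, a Log2FC of 0.41, and control 1 alone was low. KIF2C had 0.39 and BIRC5, or survivin, 0.26, and the groups of both did not overlap. Of the 30 late targets, groups were separate for these 2, which were higher, and for 1 that was lower, and overlapped for 27. Among all genes with a mean of at least 50, 9.45% had separate groups. At the low end were HMMR at -0.21, and CDK1 and CCNA2 at -0.17 each. CDK1 had 97.9 and 400 normalized read counts in the controls against 95.4 and 346 in AP1AR-DT_OE, so it followed the replicate number. The median log2 ratio of number 2 over number 1 was 0.94 in control and 0.47 in AP1AR-DT_OE for late targets, and 0.53 and 0.26 for early targets, far above the difference between groups. The late median was 0.25 within number 1 and -0.05 within number 2, and it ran from -0.41 without control 1 to 0.54 without control 2.

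**Figure D5:**
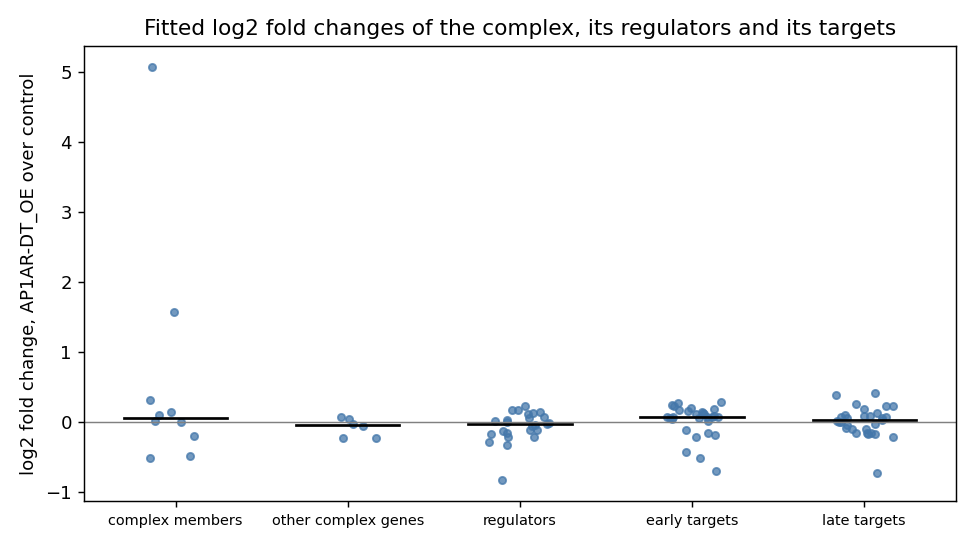
Fitted Log2FC of AP1AR-DT_OE over control for each gene (points) of the 5 lists, with the list median (black bar). LIN37 at 5.07 and TFDP1 at 1.57 stand above all other points, and the medians of the regulators, early targets and late targets are -0.03, 0.07 and 0.03.

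Genes were also ranked by how close their pattern over the 4 libraries came to that of LIN37, as the Euclidean distance of centred log2(normalized read count + 1) among 15329 genes. Since LIN37 was chosen for its rise, genes that rose strongly come first by construction. The nearest was SLC5A2, a kidney glucose transporter (distance 1.06), with 45, 33, 298 and 647 counts, and 31.1% and 9.60% of its exon bases overlap C16orf58 and AC026471.6 on the opposite strand. CGB8, a chorionic gonadotropin beta gene (1.14), had 0, 0, 33 and 52. CTC-554D6.1 (1.33), which shares exon bases with APC and SRP19 on the same strand, had 0, 0, 36 and 69. PCNP (1.39) had 34, 74, 500 and 1005 counts, and PPIF, or cyclophilin D of mitochondria (1.54), had 469, 498, 4989 and 4354. No partner of LIN37 was among the 5.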

How the data were processed

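The 4 libraries of SK-N-SH cells were assigned to control or AP1AR-DT_OE by their titles (n = 2 each). The authors deposited a single table of whole-number read counts per gene without normalization. The paper's methods name HISAT2 and StringTie, whereas the submitters' processing notes list TopHat2 2.0.4, HTSeq and edgeR 2.6.12 with hg19, and which of them made the counts could not be settled. Low counts piled up at multiples of 4, so 1 read pair was taken as 4 counts and 3 pairs as the floor, which covers counting error only. The table's coordinates are GRCh38. Its columns of the authors' own DESeq2 and edgeR fold changes and p-values were not used.

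All 24014 genes were fitted in DESeq2 1.42.0 (R 4.3.3) with median-of-ratios size factors, a two-sided Wald test without covariates and Benjamini-Hochberg adjustment with default independent filtering. Normalized read counts are counts over the size factor, as mean ± SD. No library was a copy of another. Exons, GC content and length came from GENCODE v44 on GRCh37, matched by gene ID for 23954 genes, and promoter windows from RefSeq. The fits were tested on simulated data. Alternatives tried were edgeR 4.0.16 (quasi-likelihood), TMM factors, a filter of 10 counts in 2 libraries, no independent filtering, the replicate number as a block in DESeq2 and in edgeR, a GC correction (lowess, span 0.3) with and without the block, counts divided by 4, summed counts of genes sharing exon bases on the same strand, and leaving out each library.

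Members, gene lists and tests were chosen with earlier results of these data known. The genes named were the members, all genes within 30 kb of LIN37, the other complex genes, the 3 highest and 3 lowest Log2FC of each list at a mean of at least 50 (a called gene would also have been named), the 5 genes most like LIN37 at a mean of at least 20, AP1AR-DT, and marker genes. An early target that this rule names is not reported here. PRRX1 was singled out after its values were seen. The lists held CCND2 and UHRF1 too, which were not analysed here.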

Additional observations from a re-analysis of the deposited data

How the results depend on the processing

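None of the 9 partners was called under any alternative. The number of genes called, 33 in all, became 0 in edgeR's quasi-likelihood test, where 112 had p under 0.05 before adjustment, 55 with the GC correction, 59 with the GC correction and replicate block, 15 with counts divided by 4, 14 with overlapping genes summed, and 45 to 90 with a library left out. The number of members called fell from 1 to 0 in the edgeR test, with counts divided by 4 and with overlapping genes summed, and was 0 to 1 with a library left out. LIN37 kept a positive Log2FC throughout, from 0.11 with overlapping genes summed, where PSENEN is in the sum, to 5.98. The sum of LIN37 and AC002398.9 stayed at 0.27 to 1.19 and was never called. The partners' median was 0.0811 and 0.0821 under the GC correction without and with the block, and -0.28 to 0.40 with a library left out. The early median was then -0.12 to 0.41 and the late median -0.41 to 0.54. Signs turned as follows: RBBP4 to -0.00699 in the edgeR test, -0.0157 with TMM factors, -0.34 without control 1 and -0.40 without AP1AR-DT_OE 2; E2F4 to -0.0399 and -0.0330 under the GC correction without and with the block, -0.18 without control 2 and -0.14 without AP1AR-DT_OE 1; LIN9 to -0.19 and LIN54 to -0.28 without control 1; LIN54 to -0.24 without AP1AR-DT_OE 2; LIN52 to 0.40, MYBL2 to -0.26 and RBL2 to 0.0935 without control 2; MYBL2 to -0.17 without AP1AR-DT_OE 1. The other ends of the ranges with a library left out were 0.47 for RBBP4, 0.24 for E2F4, 1.14 for LIN9, 0.74 for LIN54, -1.02 for LIN52, 0.60 for MYBL2 and -0.44 for RBL2. The cause was not tested. Only RBL1 and TFDP1 of the partners turned under no alternative.

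Same-numbered libraries deviated together (correlation 0.49 over 13298 genes), but the labels do not say that a number marks a shared batch and there are only 2 pairs. With the replicate number as a block, 37 genes were called in DESeq2, 16 of them among the 33, and 44 in edgeR, 24 of them among the 33. In DESeq2 the block gave a Log2FC of 5.08 for LIN37, 1.21 for TFDP1, -0.52 for RBL1 and 0.74 for the sum of LIN37 and AC002398.9. The medians were 0.02, 0.14 and 0.10 for partners, early and late targets, and no member's call changed in DESeq2. In edgeR, LIN37 was among the called genes with the block (Log2FC 5.02) and not without it. As LIN37 was selected on this contrast, this describes the setting and is no test of LIN37. Depth limits LIN37 and AC002398.9, at 23 to 53 read pairs in sum per library.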
